A study of Mus musculus with 12 samples.

Results

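The alkaline phosphatase gene family was represented by 4 genes, Akp3, Alppl2, Alpi and Alpl, in the duodenum of wild-type and Akp3-/- male mice given a pentapeptide or its vehicle by mouth. The array names 22905 genes. The members were the 5 probes whose accession on the array names one of these genes, out of 56583 probes kept for analysis: 2 probes of Akp3 (A_55_P2129621, called the lead probe because its mean over the arrays was higher, and A_66_P140586, called the second probe) and 1 probe each of Alppl2 (A_51_P132685), Alpi (A_51_P423813) and Alpl (A_51_P494125). All 5 were well above background on every array of at least 1 group and so were among the 32925 probes tested. The 2 Akp3 probes met this in the wild-type groups alone, and Alppl2, Alpi and Alpl in all groups. The rule that picks the probes uses no measured value.

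The 12 one-colour arrays formed 4 groups of 3: wild-type vehicle, wild-type IIAEK, knockout vehicle and knockout IIAEK. The knockout mice were Akp3-/-, called IAP knockout (IAP-KO) in the labels. IIAEK, named by the one-letter code of its residues, is a cholesterol-lowering pentapeptide. It was given once a day for 14 days at 600 mg per kg body weight, in carboxymethylcellulose sodium salt dissolved at 5 g/L, and vehicle mice received the carboxymethylcellulose alone. All mice were 7 weeks old, and the duodenum was taken after an 8 h fast. The source labels of the IIAEK samples give the duration in weeks, whereas every title and the protocol give days. The sources used here give neither the strain, nor how the null allele was made, nor whether an array held RNA of a single mouse, so the spread between arrays may be partly technical.

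Alkaline phosphatases are zinc enzymes held on the outer face of the cell by a glycosylphosphatidylinositol (GPI) anchor. In the intestine they sit on the brush border of villus enterocytes, where they remove phosphate from substrates such as bacterial lipopolysaccharide and nucleotides. In the mouse, Akp3 and Alpi encode intestinal forms, Akp3 mainly that of the duodenum, Alppl2 encodes the form known from embryo and germ cells, and Alpl encodes the tissue-nonspecific form of bone, liver and kidney. Akp3, Alpi and Alppl2 lie side by side on chromosome 1 and Alpl on chromosome 4.

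The 250 bases before the annotated start of each chromosome 1 gene are shown because these 3 genes are neighbours of which 1 is the deleted gene, and because their upstream sequences share words. The sequences are RefSeq's, on build GRCm38.p6, at chr1:87124704-87124953 on the plus strand for Akp3, chr1:87101607-87101856 on the minus strand for Alpi and chr1:87089929-87090178 on the minus strand for Alppl2. They read 5′ to 3′ along the gene, and capitals mark the words found in all 3.
Akp3: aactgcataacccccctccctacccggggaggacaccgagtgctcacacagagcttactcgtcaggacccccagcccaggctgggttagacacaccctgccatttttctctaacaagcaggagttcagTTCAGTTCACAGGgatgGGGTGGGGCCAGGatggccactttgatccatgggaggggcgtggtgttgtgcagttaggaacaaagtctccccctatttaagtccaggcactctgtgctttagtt
Alpi: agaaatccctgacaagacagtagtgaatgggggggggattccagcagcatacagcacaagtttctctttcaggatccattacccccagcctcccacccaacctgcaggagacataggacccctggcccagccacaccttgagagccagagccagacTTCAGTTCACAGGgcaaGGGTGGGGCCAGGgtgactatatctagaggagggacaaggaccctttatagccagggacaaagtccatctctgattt
Alppl2: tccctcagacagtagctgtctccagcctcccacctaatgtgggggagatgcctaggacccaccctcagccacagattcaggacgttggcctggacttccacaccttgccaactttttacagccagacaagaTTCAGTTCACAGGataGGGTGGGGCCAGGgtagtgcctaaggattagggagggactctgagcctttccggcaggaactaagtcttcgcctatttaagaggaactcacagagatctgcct
A search for words of at least 8 letters present in all 3 windows left 2 longest words, each of 13 letters. TTCAGTTCACAGG began 122 bases before the start in Akp3, 94 in Alpi and 119 in Alppl2. It occurred, on either strand, in 9 of the 32851 mouse promoter windows of this table (0.0274%). GGGTGGGGCCAGG followed without overlapping it, beginning 105, 77 and 103 bases before the start, and occurred in 15 windows (0.0457%). Both words stood together in 3 windows (0.00913%), those of Akp3, Alpi and Alppl2. The words were searched for in these 3 windows, so the 3 had to be counted. How rare other words of 13 letters are was not computed, so the shares do not mark these words as special. Neither was in the windows of the 2 annotated Alpl starts. Aligned end to end, Akp3 and Alppl2 were identical at 58.4% of columns, Alpi and Alppl2 at 56.6% and Akp3 and Alpi at 53.6%, against 45.8% to 49% between any of them and the Alpl windows. A shared word is a description of sequence and not a binding site.

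Levels are given as log2 of the processed intensity minus the log2 of that array's 75th percentile, so 0 is the 75th percentile and a difference of 1 is a doubling. Levels of different probes are not compared, apart from the marker lists below, which are a rough description. The 75th percentile of intensity lay between 195 and 465 on the 12 arrays, 55.9% to 64.0% of probes were well above background, and no spot was saturated. Arrays of a group correlated at 0.951 to 0.990. Marker lists were set beside the duodenal label: the mean of 16 villus and brush border genes was 5.27 to 5.94 over the arrays and that of 8 proximal intestine genes 2.35 to 3.66. The proximal list was uneven, with Sct (5.28 to 6.48) and Slc40a1 (5.19 to 6.33) at its upper end. Cybrd1 (0.08 to 2.60), Pdx1 (-0.84 to 0.81) and Hamp2 (-4.46 to 3.49) reached lowest in it. The mean of 5 distal intestine genes was -0.51 to 0.74, with Mep1b (2.97 to 4.97) and Slc51a (2.87 to 4.26) at the upper end of that list, Cubn between, and the ileal genes Slc10a2 (-4.02 to -2.42) and Fabp6 (-4.22 to -1.33) at its lower end. The mean of 9 stomach and Brunner's gland mucous genes, however, split the arrays: 6 lay between 3.81 and 5.51 and 6 between -2.67 and -1.21. High arrays were the 3 of wild-type vehicle, replicate 3 of wild-type IIAEK, replicate 1 of knockout vehicle and replicate 3 of knockout IIAEK. The mean of 12 pancreatic genes was 7.98 to 9.91 on 11 arrays and 3.07 on wild-type vehicle replicate 1.

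Akp3, the deleted gene, separated the genotypes on every array. Its lead probe read 2.27, 2.04 and 1.70 in wild-type vehicle replicates 1 to 3 and 1.29, 1.05 and 2.72 in wild-type IIAEK. It read -4.01, -3.80 and -4.23 in knockout vehicle and -4.64, -4.42 and -4.90 in knockout IIAEK. Each knockout array carried the low signal that its label calls for. The lead probe was still well above background in replicates 1 and 2 of knockout vehicle and in replicate 2 of knockout IIAEK, 3 of the 6 knockout arrays. No source used here places these probes inside or outside the deletion.

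The second Akp3 probe read 2.11, 2.05 and 1.20 in wild-type vehicle and 1.42, 1.54 and 2.20 in wild-type IIAEK. In the knockout it was not well above background on any of 6 arrays, with values of -5.21, -6.76 and -6.32 under vehicle and -5.74, -6.19 and -6.41 under IIAEK. Both probes thus gave wild-type and knockout groups that did not overlap.

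Against the wild type, the lead Akp3 probe fell by 6.01 ± 0.36 (difference in log2 level ± SE) under vehicle (limma adjusted p = 2.39e-05) and fell by 6.34 ± 0.36 on the log2 scale under IIAEK (adjusted p = 1.34e-05). Averaged over treatments it fell by 6.18 ± 0.26 (adjusted p = 3.93e-07). These differences are as measured, with the knockout level well above background on 2 of 3 arrays under vehicle and on 1 of 3 under IIAEK. The second probe can give only a rough bound, since the knockout level is below what the arrays measure. Set against the lowest signal of any probe that was well above background, it was 93.8-fold lower under vehicle and 78.8-fold lower under IIAEK. That limit is lenient, since a spot can read above it without being well above background. In knockout vehicle replicate 3 the lead probe did so, at -4.23 against a limit of -4.39. These rough bounds hold for the second probe alone, as the lead probe fell 64.6-fold under vehicle as measured. The limma tests of the second probe used its as-measured differences, -7.89 under vehicle (adjusted p = 4.46e-06) and -7.83 under IIAEK (adjusted p = 4.80e-06). Few probes passed the threshold of adjusted p below 0.05 in these contrasts: 0.0121% of the probes tested were called lower under vehicle (4 probes), 0.0152% under IIAEK (5 probes) and 0.0243% averaged over treatments (8 probes). None was called higher, with 424 probes higher at an unadjusted p below 0.05 in the averaged contrast. Both Akp3 probes were among the called in each contrast, and no other member was. The Akp3 probes had passed the filter through the wild-type groups alone, where they are high. Akp3 is the deleted gene, so these calls check the labels and are no finding beyond them.

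**Figure D1:**
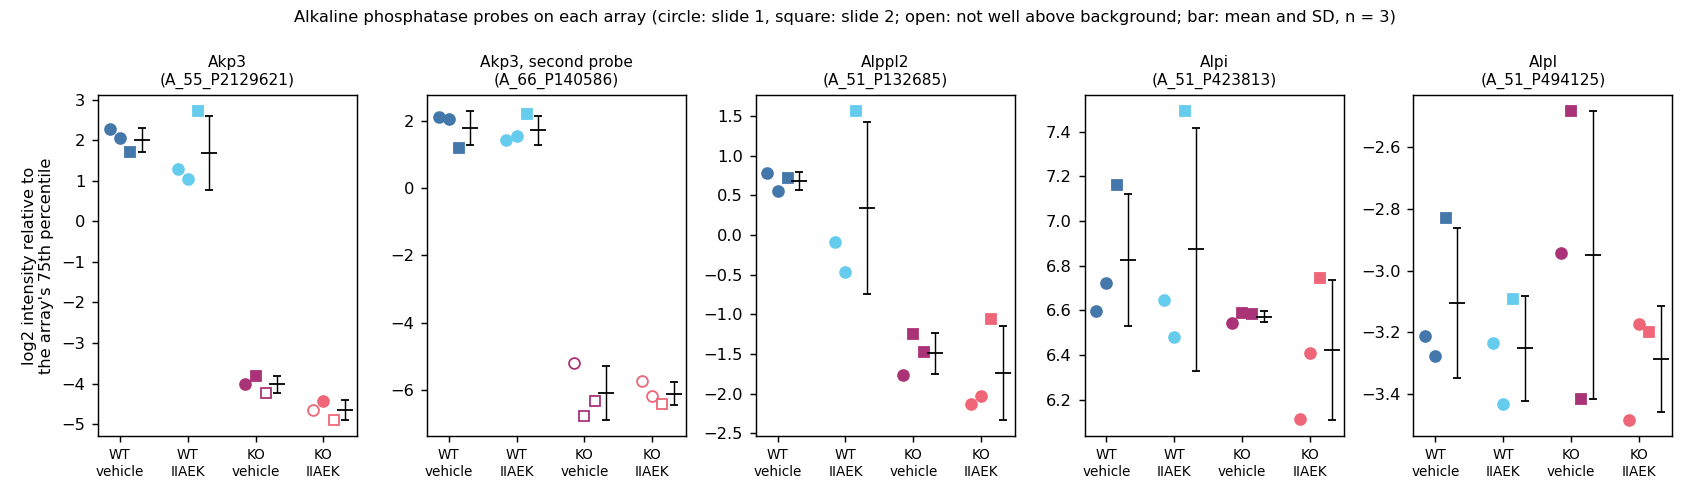
Level of each member probe on each array, as log2 intensity relative to the array's 75th percentile, by group (WT, wild type; KO, Akp3-/-). Each panel has its own axis. Circles are arrays of slide 1 and squares of slide 2, open symbols are not well above background, and bars are the mean and SD of 3 arrays. The knockout arrays of both Akp3 probes and of Alppl2 lie below all wild-type arrays, while those of Alpl overlap.

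Alppl2 had lower values in every knockout array than in any wild-type array. It read 0.78, 0.56 and 0.72 in wild-type vehicle and -0.08, -0.47 and 1.56 in wild-type IIAEK. In the knockout it read -1.76, -1.25 and -1.47 under vehicle and -2.13, -2.03 and -1.06 under IIAEK. The lowest wild-type array, replicate 2 of IIAEK, stood above the highest knockout array, replicate 3 of IIAEK. Since the signal exceeded background clearly on each of 12 arrays, unlike the second Akp3 probe the knockout level was measured and is not a bound.

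The knockout difference for Alppl2 was -2.18 ± 0.45 under vehicle (95% interval -3.16 to -1.19) and -2.08 ± 0.45 under IIAEK (-3.06 to -1.10). Neither passed the limma threshold over all probes, with adjusted p = 0.643 under vehicle and adjusted p = 1 under IIAEK. Averaged over treatments the level was 4.37-fold lower in the knockout (-2.13 ± 0.32, interval -2.82 to -1.43). This also missed the threshold, with adjusted p = 0.0638 (unadjusted p = 2.91e-05), and the probe ranked 15 among the 32925 by p. A lower level in all knockout arrays than in all wild-type arrays was found for 0.152% of all probes, or 50. Within a treatment such separation was common, at 6.22% of probes lower under vehicle and 2.14% lower under IIAEK, and is no result about a member there.

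The Alppl2 call depended on how the 2 slides were treated. Each slide held arrays of all 4 groups, 7 on slide 1 and 5 on slide 2, and each was scanned on its own day. With the slide as a block, the averaged difference was -2.27 ± 0.22 and passed the threshold (limma adjusted p = 0.003505), in a fit that called 0.0425% of probes lower. Within slide 1 alone it was -2.12 (adjusted p = 0.00712, 0.0456% of probes called lower) and within slide 2 alone -2.35 (adjusted p = 0.00292, 0.143% called lower). Slide 1 held 1 knockout vehicle array and slide 2 held 1 array of each group but knockout vehicle, and such lone arrays were taken to vary like the others. Leaving out wild-type IIAEK replicate 2 or 3 also brought the call past the threshold, at -2.33 (adjusted p = 0.0434) and -1.82 (adjusted p = 0.0105). Over 25 alternatives the difference stayed between -2.35 and -1.60 and passed in 6, with adjusted p from 0.00283 to 0.256.

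**Figure D2:**
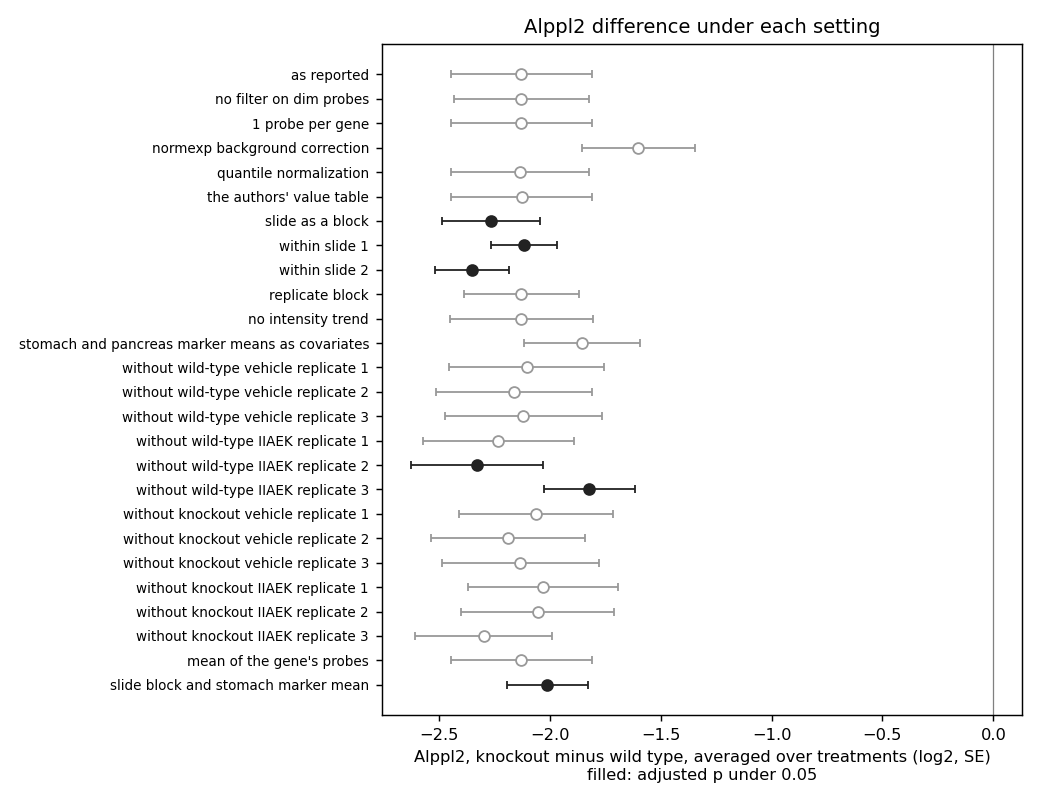
Knockout minus wild-type difference of Alppl2, averaged over treatments, as reported and under each of 25 alternatives. Points are log2 differences, bars are standard errors, and filled points have a limma adjusted p below 0.05. All values lie between -2.35 and -1.60, and the filled ones include those fitted with or within a slide.

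Alppl2 levels were also set beside the mucous gland genes. In the wild type the 4 arrays rich in those genes read 0.78, 0.56, 0.72 and 1.56 and the 2 poor ones -0.08 and -0.47, without overlap. In the knockout the 2 rich arrays read -1.76 and -1.06 and the 4 poor ones -1.25, -1.47, -2.13 and -2.03, so that rich and poor overlapped. Knockout levels lay below wild-type levels among the rich arrays and among the poor arrays alike. This had to follow from the separation over all arrays and is no check of the mucous split. With the slide as a block and the mucous mean as a covariate, a fit chosen after seeing the data, the difference was -2.01 (limma adjusted p = 0.00283). With mucous and pancreatic means as covariates and no slide term it was -1.85 (adjusted p = 0.0898). In whole tissue, fewer cells of a type and less RNA per cell cannot be told apart.

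**Figure D3:**
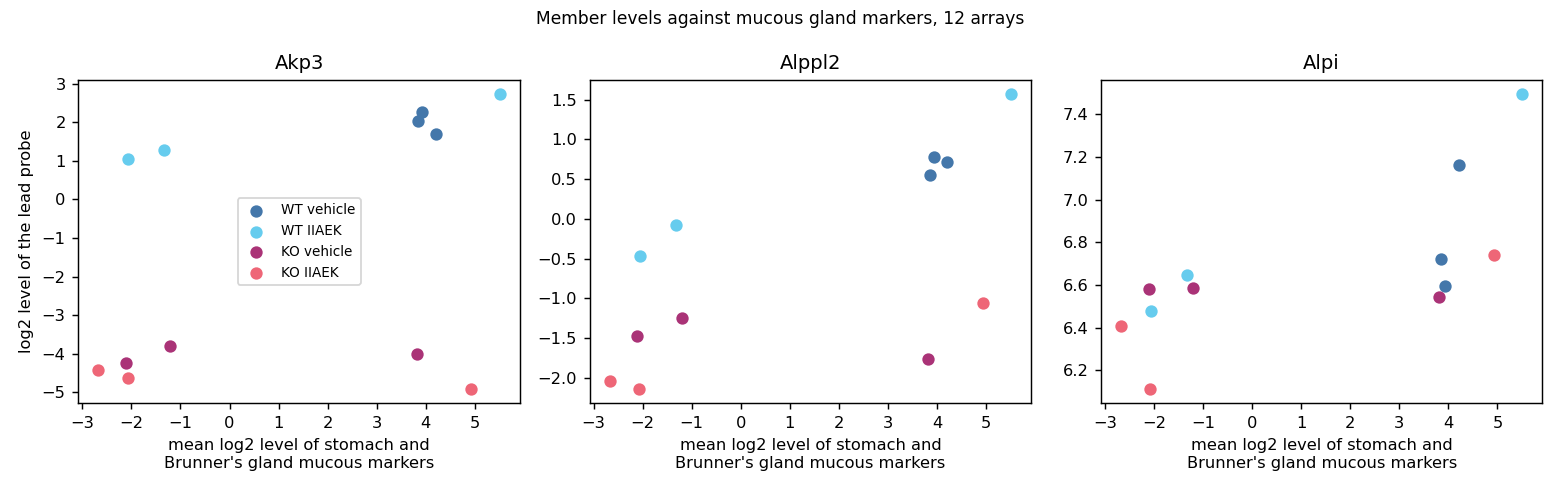
Level of the Akp3 lead probe, Alppl2 and Alpi on each of 12 arrays against the mean level of 9 stomach and Brunner's gland mucous genes, all as log2 relative to the array's 75th percentile and coloured by group. Each panel has its own vertical axis. The arrays form a rich set (3.81 to 5.51) and a poor set (-2.67 to -1.21). Knockout Alppl2 values lie below wild-type values over all arrays and therefore within each set.

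Alpi, the other intestinal alkaline phosphatase of the cluster, passed the threshold in no genotype contrast. It read 6.60, 6.72 and 7.16 in wild-type vehicle, 6.65, 6.48 and 7.49 in wild-type IIAEK, 6.54, 6.59 and 6.58 in knockout vehicle and 6.11, 6.41 and 6.74 in knockout IIAEK. Under vehicle the knockout arrays all lay below the wild-type ones, a separation found for 6.22% of all probes, and the nearest pair read 6.59 and 6.60. Under IIAEK the groups overlapped. The averaged difference was -0.35 ± 0.19 (interval -0.76 to 0.05, limma adjusted p = 1). The differences were -0.26 (interval -0.83 to 0.32) under vehicle and -0.45 (interval -1.03 to 0.12) under IIAEK. Alpi was highest in wild-type vehicle replicate 3 and wild-type IIAEK replicate 3, both on slide 2. Without the first of these arrays the difference under vehicle was -0.0883, and without the second that under IIAEK was -0.14 and the averaged one -0.20 (limma adjusted p = 0.977, 0.945 and 0.875). With the slide as a block the differences were instead -0.42 under vehicle and -0.45 under IIAEK. The averaged one was then -0.43 ± 0.13 (limma unadjusted p = 0.00567, adjusted p = 0.857), still not called.

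Alpl, the tissue-nonspecific enzyme, was measured at low intensity but well above background on all 12 arrays. It read -3.21, -3.27 and -2.83 in wild-type vehicle, -3.23, -3.43 and -3.09 in wild-type IIAEK, -2.94, -2.48 and -3.42 in knockout vehicle and -3.48, -3.17 and -3.20 in knockout IIAEK. The genotypes overlapped under both treatments. The averaged knockout difference was 0.06 ± 0.18 (interval -0.33 to 0.45, limma adjusted p = 1), 0.16 (interval -0.39 to 0.71) under vehicle and -0.03 (interval -0.58 to 0.52) under IIAEK. Neither Alpi nor Alpl was called higher in the knockout. As none of the 32925 probes tested was, this is no result about these genes.

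**Figure D4:**
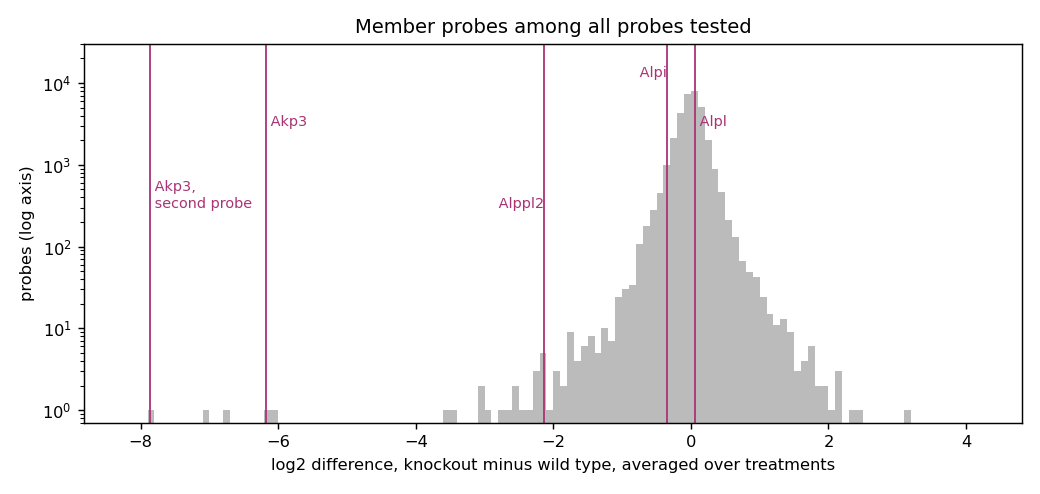
Distribution of the knockout minus wild-type log2 difference, averaged over treatments, over the 32925 probes tested, with the number of probes on a log axis. Vertical lines mark the members: the Akp3 probes at -7.86 (second probe, as measured, its knockout level being below background) and -6.18, Alppl2 at -2.13, Alpi at -0.35 and Alpl at 0.06.

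The nearest measured genes outside the cluster had small genotype differences. Dis3l2, the next gene beyond Alppl2, differed by -0.07 ± 0.09 and Ecel1, the next beyond Akp3, by -0.03 ± 0.12 between genotypes averaged over treatments (limma adjusted p = 1 for both).

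The IIAEK comparison asked whether the peptide altered these genes, and whether it did so without Akp3. No member probe was called, and none had an unadjusted p below 0.05, in wild type, in knockout or averaged over genotypes. Over all probes, too, limma called 0% in the averaged contrast, where 3.04% had an unadjusted p below 0.05. In wild type the differences were -0.31 ± 0.36 for Akp3 (interval -1.11 to 0.48), -0.07 ± 0.40 for its second probe (-0.94 to 0.80), -0.35 ± 0.45 for Alppl2 (-1.33 to 0.64), 0.05 ± 0.26 for Alpi (-0.53 to 0.62) and -0.15 ± 0.25 for Alpl (-0.70 to 0.40). All had a limma adjusted p of 0.999. The intervals leave room for a fall or a rise of each member.

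The wild-type IIAEK arrays disagreed among themselves in the lead Akp3 probe and in Alppl2. Replicates 1 and 2, on slide 1, had the lowest wild-type values of the lead Akp3 probe, 1.29 and 1.05, and of Alppl2. Replicate 3, on slide 2, had the highest, 2.72 and 1.56. The first 2 were also the only wild-type arrays poor in mucous gland genes (-1.32 and -2.06) and the third was the richest (5.51). The group SD was accordingly 0.90 for the lead Akp3 probe and 1.08 for Alppl2, against 0.28 and 0.11 in wild-type vehicle. Within slide 1 the Akp3 difference was -0.98 (limma adjusted p = 0.0698), and within slide 2, with 1 array a side, it was 1.02 in the opposite direction (adjusted p = 0.908). With the mucous and pancreatic means as covariates the difference of the lead Akp3 probe was -0.06, and without wild-type IIAEK replicate 2 it was 0.0035. The second Akp3 probe did not share the wider spread, with an SD of 0.42 under IIAEK and 0.51 under vehicle. Its lowest wild-type value was 1.20, in vehicle replicate 3. Its difference was -0.61 within slide 1, 1.001 within slide 2 and 0.32 with the covariates.

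In the knockout the IIAEK differences were -0.64 ± 0.36 for the lead Akp3 probe (interval -1.44 to 0.16), -0.25 ± 0.45 for Alppl2 (-1.23 to 0.73), -0.15 ± 0.26 for Alpi (-0.73 to 0.43) and -0.34 ± 0.25 for Alpl (-0.89 to 0.21). The lead Akp3 arrays under IIAEK all lay below those under vehicle, a separation found for 2.91% of all probes, but 3 of these 6 arrays were not well above background. With normexp the Akp3 difference was -0.0136. The Alpl difference rested on knockout vehicle replicates 2 and 3, without which in turn it was -0.11 and -0.57 (limma adjusted p = 1 for both), and was -0.0651 with normexp. The second Akp3 probe was below background in both groups and gives no difference. The IIAEK effect did not differ detectably between genotypes for any member: the difference of differences was -0.33 ± 0.51 for Akp3 (on the same partly unmeasured knockout arrays), 0.10 ± 0.63 for Alppl2, -0.20 ± 0.37 for Alpi and -0.19 ± 0.35 for Alpl. Each had a limma adjusted p of 1.

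**Figure D5:**
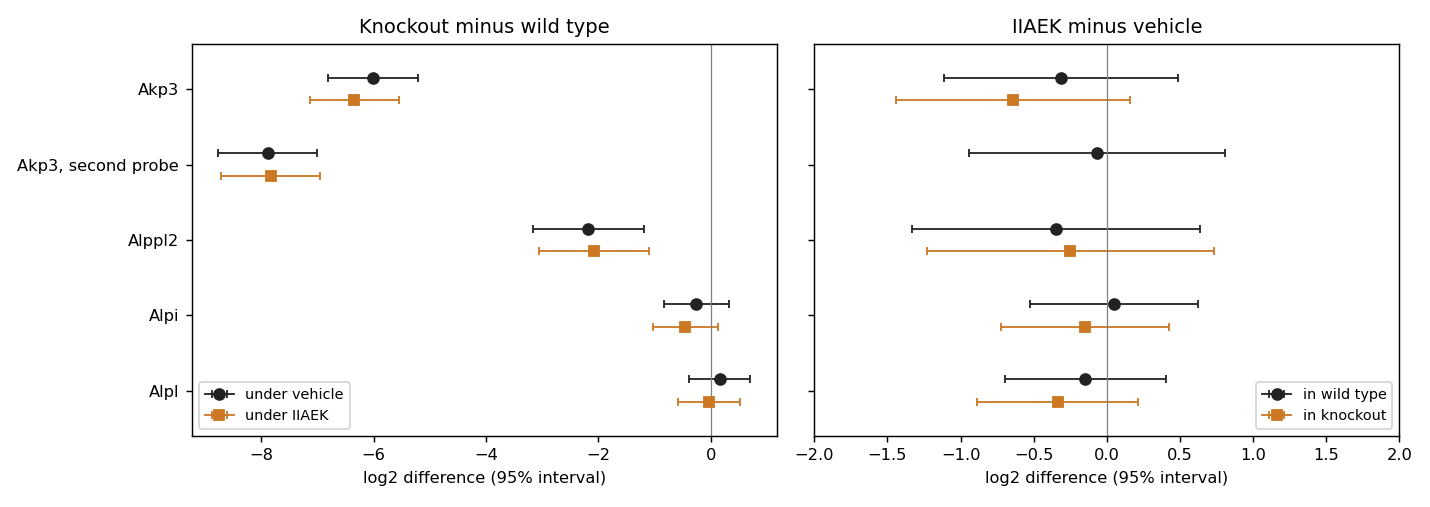
Log2 differences of the member probes between genotypes (left) and between IIAEK and vehicle (right), each with its 95% interval from the limma fit; 3 arrays a group. The horizontal axes differ. Both Akp3 probes and Alppl2 have genotype intervals wholly below 0, and every IIAEK interval spans 0. The second Akp3 probe was below background in the knockout, so its genotype differences are as measured and its IIAEK difference there is not shown.

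Of 10 pairs of members within a genotype, 2 passed the threshold. Over the 6 wild-type arrays, the lead Akp3 probe and Alppl2 gave Pearson r = 0.956 (exact permutation p = 0.00417, adjusted p = 0.0208 over 10 pairs) and Spearman rho = 0.943 (exact p = 0.0167). Without the 2 arrays farthest from the median r was 0.833. Over the 6 knockout arrays, Alppl2 and Alpi gave r = 0.884 (exact permutation p = 0.00417, adjusted p = 0.0208) and rho = 1 (exact p = 0.00278), and r = 0.901 without the 2 farthest arrays. The other 8 pairs had adjusted p of at least 0.153. They included the 2 Akp3 probes in the wild type (r = 0.795, exact permutation p = 0.0778, adjusted p = 0.194). The second Akp3 probe was paired with no other member. The call for Akp3 and Alppl2 thus rests on the lead probe alone, and whether the second probe follows Alppl2 was not tested. The arrays share the slides and the mucous gland split, neither genotype has the 6 arrays on 1 slide that a correlation was given for, and both calls were lost with normexp background correction (r = 0.922 and 0.704, adjusted p = 0.0833 and 0.208) and with quantile normalization (r = 0.951 and 0.868, both adjusted p = 0.0509).

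Among 15579 genes with a probe past the filter, those most like each member over the 6 wild-type arrays were ranked by Pearson r as a description, with no test. For Akp3 they were Kremen2 (r = 0.996), Egr1 (r = 0.994), Rnaseh1 (r = 0.987), Pmel (r = 0.986) and Rcc1l (r = 0.986). For Alppl2 they were Batf2 (r = 0.999), Inava (r = 0.993), Scap (r = 0.991), Tagln2 (r = 0.990) and Agpat4 (r = 0.988). For Alpi they were Mia3, Eef2k, Lin37, Clpb and Myo1e, and for Alpl Tshz2, Rasd2, Tnfrsf1a, Pappa and Prkacb. Over the 6 knockout arrays, which the ranking did not use, Alppl2 correlated at 0.902 with Batf2, 0.835 with Inava, 0.731 with Scap, 0.645 with Agpat4 and 0.315 with Tagln2. For the other members the knockout r was 0.649 to 0.932 with the Alpi genes and 0.037 to 0.836 with the Alpl genes. With the Akp3 genes it was -0.492 to 0.272, on a probe well above background on only 3 of the 6 knockout arrays. None of these genes passed the threshold between genotypes (limma adjusted p = 1 for each).

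Genes that serve alkaline phosphatases or handle their substrates were followed in 5 lists with 87 of 90 genes tested. None was called in any of the genotype or IIAEK contrasts. Averaged over treatments, 3.45% of them (3 genes) had an unadjusted p below 0.05 between genotypes, against 3.1% of all probes. Under IIAEK the share was 2.3% in wild type against 3.14% of all probes, 1.15% in knockout against 1.91%, and 2.3% averaged over genotypes against 3.04%. The lists' shares were near the background shares and are no result about the lists.

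Of the GPI anchor genes, which build and attach the anchor of these enzymes, 12 of 29 tested were above 0 in the averaged knockout difference and the median was -0.05, against 0.01 over all probes. The smallest p values belonged to Piga (-0.32), Pigh (-0.18) and Pigv (-0.12), enzymes of anchor assembly. Of 13 zinc supply genes, 5 were above 0 with a median of -0.09. Slc39a4, the zinc importer of the enterocyte, differed by -0.27 ± 0.12, and the zinc-binding metallothioneins Mt1 and Mt2 by 0.37 ± 0.17 and 0.43 ± 0.20. Of 19 transcription factors of enterocytes and of intestinal alkaline phosphatase genes, 9 were above 0 with a median of -0.03, and the smallest p values were those of Gata6 (-0.17), Pdx1 (0.41) and Vdr (-0.19).

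On the substrate side, 5 of 16 genes tested were above 0 and the median was -0.06. Phospho1, a phosphatase of phosphocholine and phosphoethanolamine, differed by -0.77 ± 0.31 (unadjusted p = 0.0285, limma adjusted p = 1), the pyridoxal kinase Pdxk by -0.38 ± 0.18 and Enpp2 by -0.31 ± 0.16. Of 10 endotoxin recognition genes, 7 were above 0 with a median of 0.10. Tlr5, the flagellin receptor, differed by -0.54 ± 0.22 (unadjusted p = 0.0319, adjusted p = 1), the lipopolysaccharide co-receptor Cd14 by 0.40 ± 0.20 and Irak4, a kinase downstream of Toll-like receptors, by -0.16 ± 0.10. Under IIAEK, averaged over genotypes, Cd14 differed by -0.68 ± 0.20 (unadjusted p = 0.00502, limma adjusted p = 1) and Gata6 by 0.30 ± 0.09 (unadjusted p = 0.00743, adjusted p = 1).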

How the data were processed

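Total RNA of 12 mouse duodenum samples (4 groups, 3 arrays each) was labelled with Cy3 and hybridised to one-colour Agilent arrays of 62976 spots, of which 3671 were controls. The deposited scanner files hold the processed signal, an intensity that Feature Extraction 10.7.3.1 had already background-corrected, per the file headers. The authors' deposited value table holds log2 values, which correlated at 0.999996 or more with the scanner values rescaled here and centred per probe; it served as an alternative. How it was centred is not stated. From the intensity, log2 minus each array's 75th percentile was computed, and spots of a probe were averaged; 22 of 56605 probes were left out for outlier flags. A probe was tested if its signal was well above background throughout at least 1 group (32925 probes). Probes were named through RefSeq accessions (32978 of 56583 named).

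All 4 groups were fitted together with limma 3.58.1 in R 4.3.3 (lmFit, eBayes with an intensity trend), with Benjamini-Hochberg adjustment over all probes and a threshold of 0.05. The fit was run on simulated data with independent noise and no slide or mucous gland split. That run checks the code and not the calls made here. The second Akp3 probe's rough bounds use, per knockout array, the higher of its signal and the lowest signal of any probe well above background. Pairs of members were tested by exact permutation within a genotype. Akp3 was paired in the wild type alone, and its second probe only with its lead probe. The text names all member probes, the 5 genes most like each lead probe and, from each list with no call, the 3 genes of smallest p between genotypes; Cd14 and Gata6 under IIAEK were named after their values were seen. The members and lists were chosen with earlier results of these data known. Alternatives were the dim-probe filter, 1 probe or the mean of probes per gene, normexp, quantile normalization, the authors' table, the slide as a block or alone, a replicate block, no trend, marker means as covariates and leaving out each array. The number of arrays limits the precision.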

Additional observations from a re-analysis of the deposited data

How the results depend on the processing

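Akp3 stayed called lower in the knockout under each alternative, with averaged differences of -6.67 to -3.75 for the lead probe and -7.02 for the mean of its 2 probes. The second probe also stayed called, though its differences rest on a knockout level below background. Both were smallest after normexp, whose offset of 50 lifts dim values. Alppl2 kept its direction in the genotype contrasts under each alternative. It passed under vehicle within slide 1 (-2.43), within slide 2 (-2.08) and without wild-type IIAEK replicate 3 (adjusted p = 0.0400), and under IIAEK within slide 1 (-1.81), within slide 2 (-2.63) and with the slide block and stomach marker mean (-2.02). The vehicle contrast has 1 array on one side within either slide and the IIAEK contrast 1 against 1 within slide 2, so those passes rest on the pooled spread. Averaged, it passed within slide 1 (-2.12) and slide 2 (-2.35), with the slide as a block (-2.27) and with that block plus the stomach marker mean (-2.01). Leaving out 1 array gave -2.30 to -2.04 under vehicle, -2.48 to -1.47 under IIAEK (without wild-type IIAEK replicates 2 and 3) and -2.33 to -1.82 averaged. Why the slide terms lower its p was not tested. Whether replicate numbers pair the samples was left undecided. Deviations from the group means correlated from -0.25 to 0.70 (median 0.15) between same-numbered arrays of different groups. Between differently numbered arrays they correlated from -0.72 to 0.66 (median -0.12). Of 12 arrays, 6 were closest to an array of their own number. Every replicate 3 array was on slide 2, so number and slide cannot be fully told apart. The replicate block left the averaged Alppl2 difference at -2.13 (adjusted p = 0.0501) and called 7 probes in place of 8.

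Counts of called probes moved by over 1.5 times as follows. With 1 probe per gene, 2 were called under vehicle, 2 under IIAEK and 5 averaged over treatments between genotypes. Within slide 1 these counts were 11, 18 and 19, and within slide 2 they were 123, 24 and 67. The slide as a block called 15 averaged; the slide block and stomach marker mean called 10 under IIAEK and 13 averaged; stomach and pancreas covariates called 8 under IIAEK. Leaving out 1 array gave 4 to 24 under vehicle (24 without wild-type vehicle replicate 3, 8 without wild-type IIAEK replicate 3), 5 to 8 under IIAEK (8 without knockout IIAEK replicate 3) and 5 to 13 averaged. The 13 came without wild-type IIAEK replicate 3, and 5 without replicate 1 or 2 of wild-type vehicle, replicate 1 of knockout vehicle or replicate 2 of knockout IIAEK. For IIAEK against vehicle, where none was called, slide 1 alone called 319 in wild type, 67 in knockout and 343 averaged, and slide 2 alone called 465 in knockout, 77 averaged and 47 for the difference between genotypes. Leaving out 1 array gave 0 to 21 in wild type (21 without vehicle replicate 3) and 0 to 2 in knockout (2 without IIAEK replicate 3). Lone arrays of a group within a slide are assumed to vary like the others.

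The IIAEK differences of the members, none of which was called, changed sign in many settings. In wild type, slide 2 alone gave 1.02 for Akp3, 1.001 for its second probe and 0.85 for Alppl2. Stomach and pancreas covariates gave 0.32 for the second Akp3 probe and 0.0452 for Alppl2, the slide block and stomach marker mean gave 0.31 for the second probe, and Alpi was -0.11 with quantile normalization and -0.0968 within slide 1. Leaving out 1 array gave -0.83 to 0.0035 for Akp3, -0.36 to 0.0913 for its second probe, -0.96 to 0.0567 for Alppl2 and -0.26 to 0.24 for Alpi. In knockout, the slide as a block gave 0.0261 for Alppl2 and 0.013 for Alpi, and slide 2 alone gave 0.30 and 0.16; leaving out 1 array gave -0.31 to 0.0036 for Alpi. For the difference between genotypes, Akp3 was 0.25 with normexp and 0.46 within slide 1, Alppl2 was -0.55 within slide 2, -0.28 with covariates and -0.0126 with the slide block and stomach marker mean, and Alpl was 0.0142 within slide 2. Leaving out 1 array gave -0.65 to 0.19 for Akp3, -0.31 to 0.71 for Alppl2, -0.39 to 0.11 for Alpi and -0.42 to 0.0417 for Alpl. Averaged over genotypes, slide 2 alone gave 0.0668 for Akp3, 0.57 for Alppl2 and 0.25 for Alpi; Alpi was 0.0297 with the slide as a block, 0.0088 with covariates, 0.0929 with the slide block and stomach marker mean, and -0.21 to 0.0465 without 1 array. The genotype difference of Alpl was -0.12 under vehicle and -0.12 averaged within slide 2, 0.0636 under IIAEK with normexp and 0.0035 within slide 1. Without 1 array it was -0.0754 to 0.39 under vehicle, -0.12 to 0.0657 under IIAEK and -0.0545 to 0.18 averaged. That of Alpi kept its direction, at -0.37 to -0.0883 under vehicle, -0.65 to -0.14 under IIAEK and -0.45 to -0.20 averaged without 1 array, and at -0.21 and -0.66 averaged within slides 1 and 2. The causes were not tested.

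With 3 arrays a group, the median SE of a difference between groups over all probes was 0.24, so small effects on Alpi or Alpl could not be seen.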
